A study of Magallana angulata with 3 samples.

Results

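The most abundant transcripts of oyster adductor muscle were taken as the genes whose mean over 3 libraries was at least 1000 RPKM (the reads of a gene per unit of gene length, scaled to a fixed read total per library). This limit was passed by 138 of the 28027 gene identifiers in the deposited tables. The members were thus chosen by their levels in all 3 libraries, so the levels, shares and ranks of these genes are given as descriptions, with no test. The libraries came from adductor muscle of the Fujian oyster (Magallana angulata), 1 labelled DF and 1 labelled DM, both diploid, and 1 labelled T, triploid. Per the labels, diploids were bred from diploid parents, and triploids came from those parents after a chemical had made the eggs keep the second polar body. All oysters had been kept for a year, with temperature and food alike for each group. The labels do not say what F and M stand for or how many animals a library holds. Each label has 1 library, so no difference has a replicate check.

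The adductor muscle pulls the shell valves together. In oysters it has a striated part that contracts quickly and a smooth part that holds tension for long at little cost. Muscle in general devotes much of its messenger RNA to few products, above all actin, myosin and the other proteins of the contractile filaments, and also to ribosomal proteins and enzymes of energy supply. Which of the 138 genes belong to these classes is not stated here, because the deposited tables give identifiers without names: none of the 28027 was found when looked up in a RefSeq gene table (0 of 138 members). The labelled tissue could for the same reason not be checked against muscle markers, and no position or sequence is given.

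The libraries rested on 1805591, 2057805 and 2137859 reads in DF, DM and T, recovered from the RPKM values as the most fitting of 39 candidates. For DF, totals of 3611182 and 5416773 also gave whole reads for every gene, with a smaller share of the total recovered, and read numbers and counting intervals would differ with them. The 138 genes held 891635, 1333536 and 1200075 of these, in the same order. All had at least 451 reads over the 3 libraries together, and 5 had fewer than 100 reads in some library. The 95% counting interval of the ratio, taken on the deposited scale, held 1 in 34 of the 138 genes between T and DF. It held 1 in 7 between T and DM and in 5 between DM and DF. In such genes a difference could not be told from counting error. Intervals after other scalings were not computed. What the spread between animals or between repeated libraries would be is not known from 1 library per label. These intervals are exact and cover the counting of reads only, so they are no test of ploidy or label.

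The 138 genes made up 55.3% of the summed RPKM of DF, 68.3% of DM and 61.1% of T. As shares of reads, which are not divided by length, they took 49.4% in DF (Clopper-Pearson interval 49.3% to 49.5%), 64.8% in DM (64.7% to 64.9%) and 56.1% in T (56.1% to 56.2%). On both measures DM was the most concentrated library, DF the least, and the triploid lay between them. In DF, 89 genes were needed to reach 50% of the summed RPKM, against 19 in DM and 55 in T. For 90% the numbers were 2761, 1405 and 2295.

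A single gene held a large share of each library. CGI_10018876, the most abundant gene in each library, stood at 155208, 299164 and 211346 RPKM in DF, DM and T. It held 13.4%, 27.7% and 18.9% of the summed RPKM in DF, DM and T. Its mean was 5.51 times that of the next gene. Between DF and DM its share differed by 14.3 percentage points, while the joint share of the 138 genes differed by 13.0 points. The 9 genes that follow it in mean RPKM as a group held 16.2% in DF, 17.2% in DM and 15.2% in T. The other 128 genes held 25.7%, 23.4% and 27.0%. In bulk muscle, more cells of a kind and more RNA per cell cannot be told apart behind such shares.

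**Figure D1:**
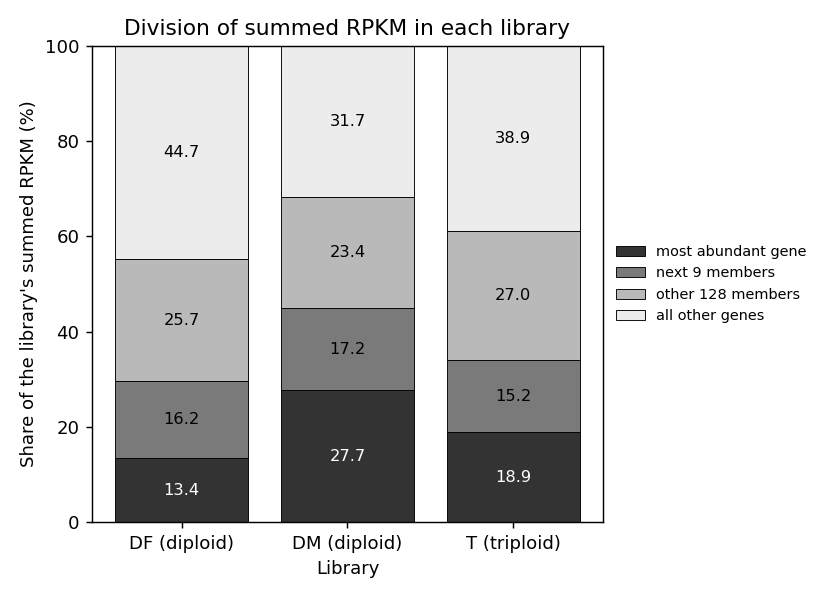
Share of each library's summed RPKM (vertical axis, percent) held by the most abundant gene, the next 9 members, the other 128 members and all other genes, in the libraries DF, DM and T (1 library each). The most abundant gene goes from 13.4% in DF to 27.7% in DM, while the next 9 members stay between 15.2% and 17.2%.

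Because shares add up to 100%, a larger share of CGI_10018876 lowers those of all other genes. Leaving this gene out of the sums, the remaining 137 genes took 48.4% of the rest in DF, 56.2% in DM and 52.0% in T. The order of the libraries thus stayed as it was, with smaller distances. Of the same rest, the next 9 genes held 18.7% in DF, 23.8% in DM and 18.8% in T, so that DM stood apart and DF and T were near each other. The other 128 genes held 29.7%, 32.4% and 33.3%.

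Below CGI_10018876 the order of the first few genes was close to the same in each library, and less so further down. Over the 20 members with the highest mean, CGI_10018876 among them, Spearman's rank correlation was 0.86 between T and DF. It was 0.70 between T and DM and 0.73 between DM and DF. Levels are given on the deposited scale. CGI_10006807 had 36479, 44922 and 39469 RPKM in DF, DM and T, which made it the third gene in DF and the second in the others. CGI_10026681 was at 44116, 36673 and 32995 RPKM in DF, DM and T, the second in DF and the third in the others. CGI_10001766 had 35023, 18425 and 23726 RPKM, highest in DF. DF stood at 1.90 times the level of DM (1.86 to 1.94), the widest range of these 3 genes as deposited. After median-of-ratios scaling, which sets the libraries to the same median ratio, its range of 1.21-fold was the narrowest of them, against 2.14-fold for CGI_10006807 and 1.58-fold for CGI_10026681.

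CGI_10017461 had 19779, 26671 and 16840 RPKM in the order DF, DM and T, and CGI_10013164 had 18016, 23559 and 18960. Both were highest in DM. CGI_10019704, a gene with a recovered length of 2835 nt, was the most even of the 10 leading genes as deposited, at 10438, 10232 and 9294 RPKM, but not after median-of-ratios scaling, where its range was 1.70-fold and that of CGI_10022730 1.14-fold. It had the second largest share of reads in each library, at 2.96%, 2.90% and 2.63%.

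CGI_10018930 was the least even of the 10. It had 4793 RPKM in DF (counting interval 4707 to 4879.5), 9453 in DM (9340 to 9567) and 13859 in T (13725 to 13994), and went from the nineteenth place in DF to the eighth in DM and the seventh in T. In T it was at 2.89 times its DF level (2.83 to 2.95) and 1.47 times its DM level (1.44 to 1.49). CGI_10022730 had 10388, 6811 and 9655 RPKM, lowest in DM on this scale. CGI_10012583 had 8349, 9155 and 5641 RPKM, lowest in T.

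**Figure D2:**
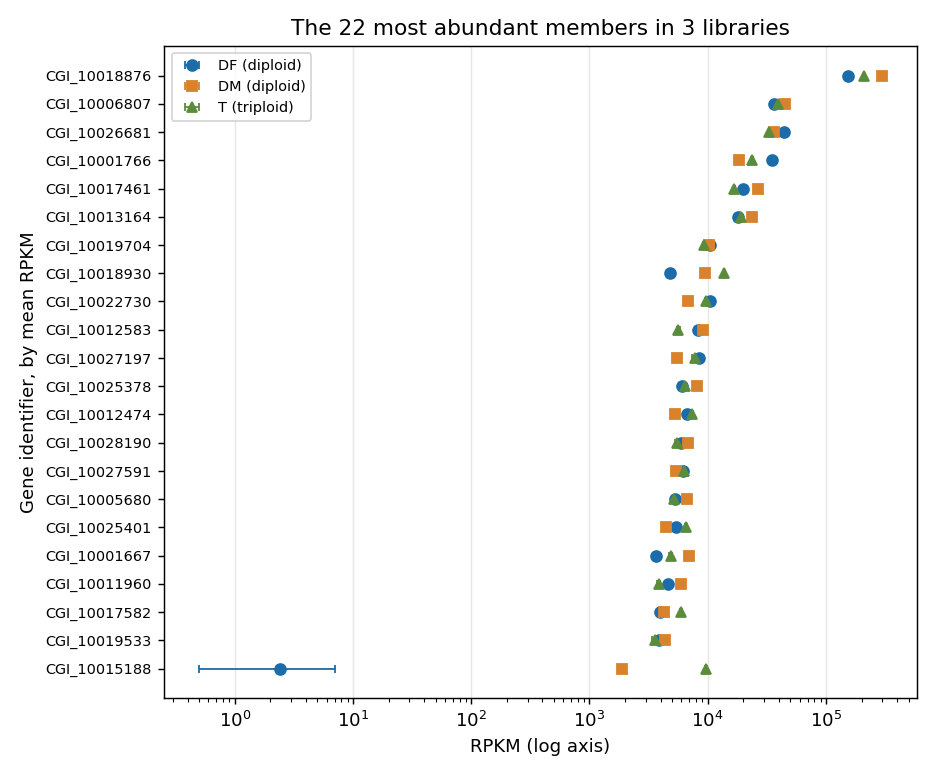
RPKM (horizontal log axis) of the 22 most abundant members in DF, DM and T, ordered by mean; bars are 95% exact Poisson counting intervals and are mostly hidden by the symbols. CGI_10018876 stands apart at 155208 to 299164 RPKM, and CGI_10015188 is the gene of this group that is near 0 in DF (2.40 RPKM) and at 9714 RPKM in T.

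Of the 10 most abundant genes of each library, 7 were shared by all 3, and the lists named 13 genes together. Of the 20 most abundant, 17 were shared, out of 24 named. For the 100 most abundant, 78 were shared out of 124, of which 119 are among the 138. CGI_10018876 alone had the same place in all 3 libraries among the leading 100. Taking the limit within a library, 156, 119 and 141 genes reached 1000 RPKM in DF, DM and T. Of the 138, 105 did so in every library, 27 in 2 libraries and 6 in 1. A further 35 genes reached it in some library but not as a mean.

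The median change of place of the 138 genes, in either direction, was 14 ranks between T and DF, with ranks taken over all genes. It was 21 between T and DM, and 11 between DM and DF. Spearman's rank correlation over the 138 genes was 0.74 between T and DF, 0.66 between T and DM and 0.71 between DM and DF. Pearson's r of log2(RPKM + 1) over the 138 genes was 0.35 between T and DF, 0.86 between T and DM and 0.57 between DM and DF. These are correlations across genes, which are not independent replicates, and each pair of libraries is a single comparison. The low r between T and DF rested on the 5 genes described next, whose range over the libraries was at least 16-fold. Without them, over 133 genes, r was 0.95 between T and DF, 0.88 between T and DM and 0.91 between DM and DF.

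Of those 5 genes, 3 were nearly missing from DF and high in T, with DM between. CGI_10015188 went from 3 reads in DF (2.40 RPKM) over 2707 in DM (1898 RPKM) to 14391 in T (9714 RPKM), where it was the eighth gene. CGI_10021674 went from 6 reads (2.95 RPKM) over 1278 (551 RPKM) to 11243 (4662 RPKM), and T stood at 8.47 times the level of DM (7.99 to 8.98). CGI_10021396 had 0 reads in DF, 80 in DM (864 RPKM) and 371 in T (3856 RPKM). With 3 reads put in place of 0 in DF, it was 104-fold higher in T than in DF. The exact counting interval of the ratio, taken with 0 reads, has a lower limit of 84.5. The recovered length of CGI_10021396, 45 nt, was the shortest of all 138. A common factor of its reads and length would make both larger. Together these genes held 0.000461%, 0.307% and 1.63% of the summed RPKM in DF, DM and T.

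The other 2 went the opposite way. CGI_10022468 went from 3647 reads in DF (5343 RPKM) over 87 in DM (112 RPKM) to 28 in T (34.6 RPKM). CGI_10009149 went from 3841 reads (3636 RPKM) over 101 (83.9 RPKM) to 26 (20.8 RPKM). In DF these genes ranked 17 and 32, and in T 2594 and 3818. Both passed the limit on the mean through DF alone. DF stood at 47.8 times the DM level for CGI_10022468 (38.6 to 59.8) and 43.3 times for CGI_10009149 (35.6 to 53.3). They held 0.775%, 0.0181% and 0.00495% of the summed RPKM in DF, DM and T. In both directions DM lay between DF and T. The limit on the mean admits genes that are low in a library. Whether the few reads of such genes there come from a low level or from reads that did not map was not tested.

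Most of the 138 genes differed by less than 2-fold over the 3 libraries. On the scale of RPKM + 1, the highest library was under 1.5 times the lowest in 53 genes, from 1.5 to under 2 times in 67, from 2 to under 4 times in 12 and from 4 to under 16 times in 1. That last gene was CGI_10010679, with 5439, 786 and 4122 RPKM in DF, DM and T. The share with a range under 2-fold was 87.0%, against 64.0% of the 892 genes with a mean from 100 to under 1000 RPKM. After median-of-ratios scaling these shares were 68.1% and 58.7%. The lower class has fewer reads per gene, and the part of counting error in its wider ranges was not tested.

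**Figure D3:**
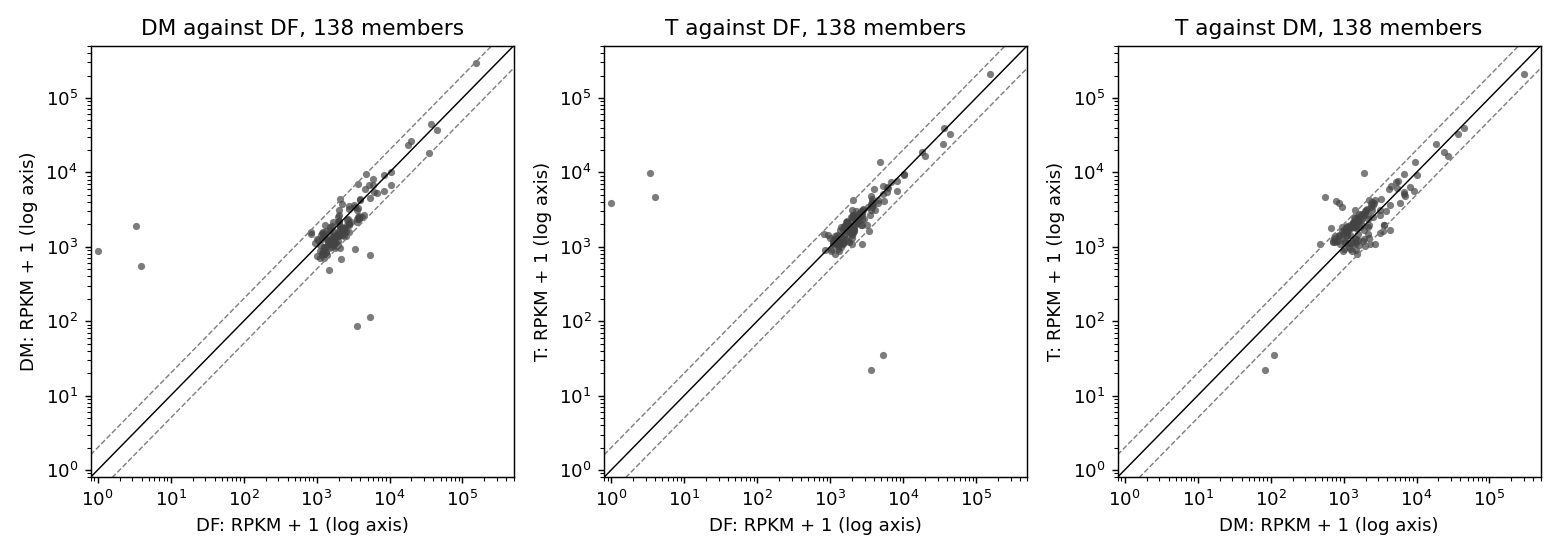
RPKM + 1 of the 138 members in 1 library against another (log axes), for DM against DF, T against DF and T against DM; the solid line marks equal values and the dashed lines a 2-fold difference. Most genes lie within the dashed lines, and the 5 genes with a range of at least 16-fold stand off in the panels with DF on the horizontal axis.

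A gene was called higher or lower where log2(RPKM + 1) differed by at least 1, that is 2-fold. This scale understates the change of low genes. All 138 genes were among the 14402 whose mean reached 1 RPKM, which served as the background. The comparisons share libraries, so the counts are not independent of each other.

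The triploid was set against each diploid library, which is the comparison the series was made for. Of the 138, 5 were higher in T than in DF, where 10.1% of all genes compared were called and 6.5% of those with 100 to under 1000 RPKM. They were CGI_10015188, CGI_10021396, CGI_10021674, CGI_10018930 and, named after its values were seen, CGI_10026148 (2056, 2202 and 4236 RPKM in DF, DM and T). A further 4 were lower in T than in DF, where the background was 18.6% and 11.7%. These were CGI_10009149, CGI_10022468 and, also named after their values were seen, CGI_10005959 (3399, 3455 and 1639 RPKM in DF, DM and T) and CGI_10000513 (2731, 2337 and 1089). CGI_10009149 and CGI_10022468 had passed the limit on the mean through DF alone. After median-of-ratios scaling CGI_10005959 was no longer called, with a log2 difference of -0.76 between T and DF. DM minus DF on the log2 scale was 0.02 as deposited and 0.82 after scaling for CGI_10005959, and -0.22 and 0.57 for CGI_10000513.

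Against DM, 8 of the 138 were higher in T, with a background of 25.4% of all genes and 15.8% of those with 100 to under 1000 RPKM. The largest differences were those of CGI_10021674 and of CGI_10010679, which was 5.24 times as high in T as in DM (4.79 to 5.74). A total of 7 were lower in T than in DM, against 4.82% and 4.6% in the background. The largest were CGI_10009149, at 4.04 times the T level in DM (2.60 to 6.47), and CGI_10022468, at 3.23 times (2.09 to 5.13).

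T was higher than both diploid libraries in 3 of the 138 genes, against a background of 6.23% of all genes and 4.93% of the 100 to under 1000 RPKM class. They were CGI_10021674, CGI_10015188 and CGI_10021396, the 3 genes nearly missing from DF. They are members through their level in T, so their being high there is part of how they were chosen. T was lower than both in 4 genes, against 2.74% and 2.58%. They were CGI_10009149, CGI_10022468, CGI_10000513 and CGI_10005959, the last of them not after median-of-ratios scaling. CGI_10009149 and CGI_10022468 are members through DF alone, so their being lower in T than in DF is part of how they were chosen. As shares of 138 these counts are 2.17%, below the background, and 2.90%, near it.

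The diploid libraries were compared with each other to see how far they differ without a change of ploidy. Of the 138, 4 were higher in DM than in DF, with a background of 5.56% of all genes and 5.16% of the next class. They were CGI_10021396, CGI_10015188, CGI_10021674 and, named after its values were seen, CGI_10000152 (2127, 4369 and 1700 RPKM in DF, DM and T). A total of 7 were lower in DM, against 37% and 22%. The largest differences were those of CGI_10022468 and CGI_10009149, which had passed the limit on the mean through DF alone. CGI_10018876 was not called, since its level in DM was 1.93 times that in DF (1.92 to 1.94).

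These counts depended on the scaling, which moves all genes of a library together. As deposited, the median log2 difference over the 14402 genes was -0.68 for DM minus DF, -0.24 for T minus DF and 0.46 for T minus DM. Over the 138 genes it was -0.35, -0.03 and 0.44. The 138 were thus lowered less in DM, relative to DF, than genes at large. After median-of-ratios scaling the medians over all genes were -0.03, 0.02 and 0.04, and those over the 138 were 0.45, 0.26 and -0.07. The median over the 892 genes of the next class was 0.44 for DM minus DF after scaling, so that the shift was not limited to the 138.

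The direction of most members between the diploid libraries turned with the scaling, as did that of the next class. As deposited, 45 of the 138 were higher in DM than in DF and 93 lower, against 3034 and 11265 of the 14402 genes compared. In the next class the counts were 277 and 615 of 892. After median-of-ratios scaling 124 of the 138 were higher and 14 lower. Among all genes compared the counts were then 6994 and 7305, and in the next class 636 and 256. After equal sums without the 20 most abundant genes, 95 of the 138 were higher and 43 lower. After median-of-ratios scaling, 32 were at least 2-fold higher in DM than in DF, where 13.4% of all genes and 23% of the next class were called, and 4 were lower, against 18.4% and 8.07%. T was lower than DM in 23, against 10.1% and 14.7%, and higher in 5, against 15.6% and 8.41%. T was higher than DF in 6, against 12.4% and 8.41%, and lower in 3, against 12.7% and 7.74%. T was higher than both diploid libraries in 3, against 5.7% and 4.26%, and lower than both in 3, against 3.46% and 2.8%. Relative to all genes the 138 were called more often than the background in 2 of these 8 counts, higher in DM than in DF and lower in T than in DM, and in both they were close to the next class. For CGI_10018876 the direction held, with 1.93-fold higher levels in DM than in DF on the deposited scale and 3.35-fold with median-of-ratios scaling. Its level relative to the median gene of all 14402 was higher in DM than in DF by 1.63 on the log2 scale as deposited. After scaling this value was 1.77, which is near by construction, since a common factor of a library nearly cancels in it.

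The differences of T from DM fell in 2 heaps, a pattern noticed in the plot of differences. The bounds of 0 and 0.3 were taken from this pattern, so the shares below describe it and are no test of it. On the deposited scale, 51 of the 138 were lower in T than in DM, with a median log2 difference of -0.38 among them. A further 77 were higher by at least 0.3, with a median of 0.60 among them. Between 0 and 0.3 lay 10 genes, or 7.25%, against 17.0% in the class from 100 to under 1000 RPKM. The 2 heaps had similar levels, with median mean levels of 1876 and 1950 RPKM, and median recovered lengths of 555 and 471 nt. Between T and DF, 41 genes (29.7%) lay from 0 to 0.3, against 16.4% in that class. The median difference of the 138 in this pair was -0.03, so this stretch lies near its centre and the pairs are not alike in this. Between DM and DF, 18 genes (13.0%) lay there, against 12.9%.

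**Figure D4:**
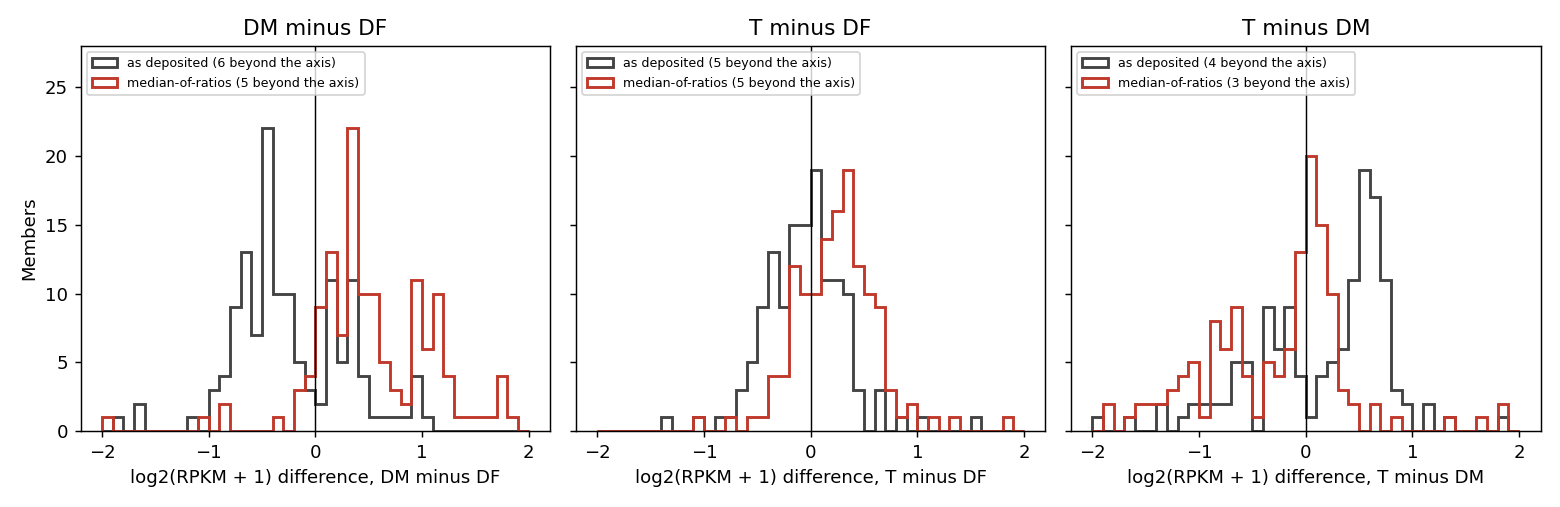
Number of members (vertical axis) by log2(RPKM + 1) difference between libraries (horizontal axis, bins of equal width), for DM minus DF, T minus DF and T minus DM on the deposited scale and with median-of-ratios scaling; genes beyond the axis are counted in the legend. As deposited T minus DM has a gap just above 0, where 10 of 138 genes lie between 0 and 0.3, and scaling moves whole distributions.

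DM was the lowest library in 79 of the 138 genes (57.2%) and the highest in 37 (26.8%), with the deposited scale. In the class from 100 to under 1000 RPKM these shares were 53.4% and 21.6%. DF was the lowest in 21 (15.2%) and the highest in 51 (37.0%), against 17.0% and 52.9% in that class. T was the lowest in 38 (27.5%) and the highest in 50 (36.2%), against 29.6% and 25.4%. The triploid lay between the diploid libraries in 50 genes, or 36.2%, where 33.3% is an equal share for a library, and in 45.0% of the next class. Among the first 10, 5 were highest in DM and 2 lowest there. Of the 53 others with a mean of at least 2000 RPKM, DM was highest in 14 and lowest in 33, and of the 75 with 1000 to under 2000 RPKM in 18 and 44. After median-of-ratios scaling DM was highest in 77 of the 138 (55.8%) and lowest in 11 (7.97%). In the next class these shares were 56.1% and 18.9%. The orders above, too, are thus those of the deposited scale.

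Most of the 138 genes were short. Their recovered lengths had a median of 513 nt, against 604.5 nt in the class from 100 to under 1000 RPKM and 1020 nt in genes with 1 to under 100 RPKM. Only 5 of the 138 (3.62%) reached 1500 nt, against 31.1% of the last class. RPKM divides by length, so a short gene needs fewer reads to pass the limit, and length was not independent of the choice. The libraries are labelled as digital gene expression libraries, and whether reads fell along a transcript or at 1 tag is not stated. With 1 tag per transcript, dividing by length would itself raise short genes. The shares of reads given above are free of that division as a measure, but the 138 genes they sum were chosen on RPKM. Among the 138 genes with the most reads, 92, 93 and 95 were members in DF, DM and T. All of the 10 genes with the most reads on average were members.

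**Figure D5:**
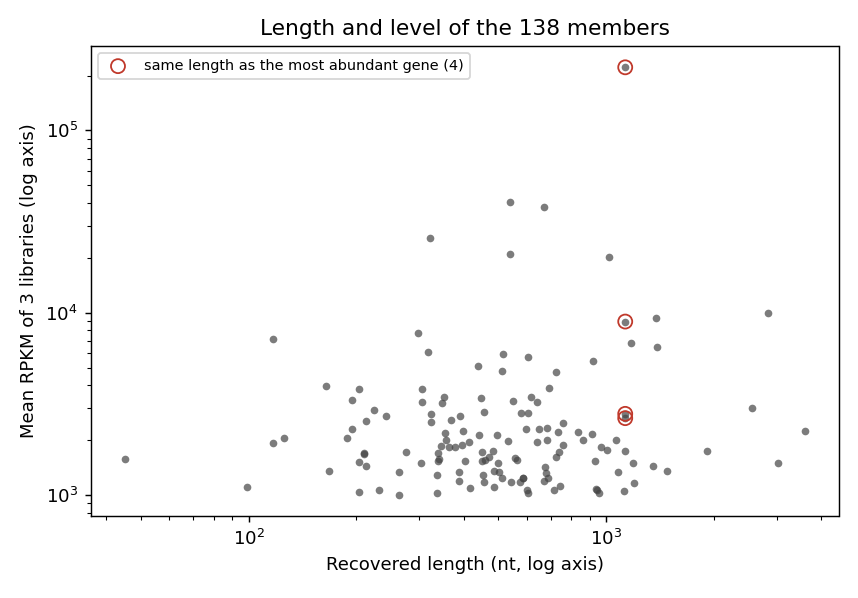
Mean RPKM of the 3 libraries against recovered length in nt for the 138 members (log axes); rings mark the 4 members with the length of the most abundant gene, 1131 nt. The shortest member has 45 nt and the longest 3588 nt, and most lie below 1000 nt.

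The length of CGI_10018876, 1131 nt, was shared by 3 other members, CGI_10022730, CGI_10022729 and CGI_10024579. Of the 14402 genes compared, 28 have this length (0.194%). A further 2 lengths, 204 and 606 nt, were each shared by 3 members. CGI_10022729 had 3570, 2162 and 2643 RPKM in DF, DM and T, and CGI_10024579 had 2826, 2033 and 3072. Like CGI_10022730, both were lowest in DM as deposited, as were 79 of the 138, and none of the 3 was lowest there after median-of-ratios scaling. Whether these genes are copies of each other, between which reads could be divided in counting, was not tested, because no sequence was used here. Summed, the 4 genes held 14.9%, 28.7% and 20.2% of the summed RPKM in DF, DM and T.

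Some members carry identifiers that follow each other in number. This held for 8 of the 138 (5.80%), in 4 pairs, while 163 of the other 14264 genes compared (1.14%) had an identifier next to that of a member. CGI_10022729 and CGI_10022730, both of 1131 nt, were such a pair. Both were highest in DF and lowest in DM as deposited, but neither was so after median-of-ratios scaling. CGI_10014111 and CGI_10014112 were also both highest in DF and lowest in DM as deposited. CGI_10024998 and CGI_10024999 were both highest in DF, the former lowest in DM and the latter in T. How often members outside such pairs share these places was not counted. CGI_10017743 and CGI_10017744 were both highest in DM, the former lowest in T and the latter in DF. The former had 1506, 1841 and 1181 RPKM in DF, DM and T, and the latter 1208, 1503 and 1289. The numbers were not tied to positions in a genome here.

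At the limit of 1000 RPKM the choice rested on small differences. The last member, CGI_10019448, had a mean of 1003 RPKM, with 1103, 712 and 1194 in DF, DM and T. The first gene outside, CGI_10004855, had a mean of 999 RPKM, with 1417, 957 and 623 in DF, DM and T.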

How the data were processed

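Per the labels' protocols, oligo(dT) was used to take messenger RNA from adductor muscle for digital gene expression libraries, read on an Illumina HiSeq. The submitters' processing notes list TopHat, with no version. The authors deposited 1 RPKM table per library. No source used here names the counter, genome build or annotation, so the species of the gene models is not stated here. How well reads of this oyster map to those models was not tested. RPKM divides by the read total, so a very abundant gene lowers all others.

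Tables were joined on the identifier (pandas 2.3.3, numpy 2.4.6, scipy 1.17.1, Python 3.11.15). Read totals and reads were recovered from the spacing of the values, with lengths in steps of 3 nt. All 19931 genes above 0 then had whole reads, within 0.001 of a read or, for very abundant genes, a relative distance of 3e-09. Of 39 candidate totals, that whose recovered reads came closest to the total without passing it was taken. The totals lay within 0.0002 of whole numbers. A common factor of reads and length cannot be seen, so both are lower limits. The recovered reads came to between 97.5% and 98.0% of the totals. Recovery and the size rule were also run on simulated libraries made with the recovered totals and lengths, with reads kept just under the totals. Such a run checks how the method works, and cannot show that the totals or lengths are right for these libraries.

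Differences were taken on log2(RPKM + 1) by a size rule of 2-fold, with no test, since each label has 1 library. A floor of 3 reads stands for 0. Named are the 10 most abundant members, those at the limit, and per comparison at most 2 members in each direction; others are marked. Members, rule and settings were chosen with earlier results of these data known. Product lists for muscle, hemocyte, cilia and gonad were not used, because no identifier has a name.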

Additional observations from a re-analysis of the deposited data

How the results depend on the processing

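Of the differences past 2-fold, 15 were recomputed singly and were past 2-fold in the same direction in each of 90 recomputations with other scalings and pseudocounts. Most of these genes were named for large differences, which favours this. Outside these 15, CGI_10005959 went from -1.05 to -0.76 (log2, T minus DF) with median-of-ratios scaling and lost its call. Of the 88 recomputed counts of members, 50 stayed within 1.5 times the main count. Pseudocounts of 0.1 and 5 and the counting interval left all 8 counts within that range. At the levels and reads of these genes such settings could hardly change a call. Their results are part of the 50 and say little about how firm the counts are.

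The joint share in DF, DM and T was 63.1%, 74.6% and 68.1% with a limit of 500 RPKM (250 genes), and 45.0%, 59.7% and 50.9% with 2000 RPKM (63 genes). It was 53.7%, 68.5% and 59.3% with members chosen on the other 2 libraries, 49.4%, 64.8% and 56.1% of reads, and 48.4%, 56.2% and 52.0% without CGI_10018876. The share of that gene in reads was 17.6%, 33.8% and 23.9%. DM was highest and DF lowest under each of these settings.

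With median-of-ratios scaling, T against DM gave 5 higher and 23 lower, and DM against DF gave 32 higher and 4 lower. Trimmed mean scaling gave 5 and 21, and 31 and 4. With sums made equal leaving out the 20 most abundant genes, 15 were below DM in T and 12 above DF in DM, and equal sums over all genes, added after seeing the data, gave 8 for the latter. These follow from the shift of whole libraries.

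Counts below are higher then lower. For fold limits of 1.5 and 4 the shares over all genes are not given here, so those counts cannot be read against genes at large. For the RPKM limits the 2-fold shares over all genes given above apply. A fold limit of 1.5 gave 9 and 10 for T against DF, 45 and 18 for T against DM, 12 and 38 for DM against DF, and 5 and 7 for T against both. A fold limit of 4 gave 3 and 2, 4 and 0, 3 lower in DM than in DF, and 0 lower in T than in both. A limit of 500 RPKM (250 genes) gave 11 and 15 for T against DF, and 23 higher in T than in DM. It gave 22 lower in DM than in DF and 9 higher in T than in both. A limit of 2000 RPKM (63 genes) gave 3 and 2, 4 and 4, 2 and 2, and 1 and 2. These follow from the looser or stricter limits.

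Depth limits the low values: the floor of 3 reads is 1.66, 1.46 and 1.40 RPKM in DF, DM and T at a length of 1 kb. At that length 0 reads allow levels up to these. In shorter genes they allow higher levels, as in CGI_10021396, with 0 reads in DF and a recovered length of 45 nt. No paired analysis was possible because there is 1 library per label, without replicate numbers.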
